A study of Mus musculus with 14 samples.

Results

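Collagen chains were followed in EpH4 and EpRas cells. The members are the genes whose symbol has the form Col, a type number, the letter a and a chain number. There were 43 of them among the 23284 genes listed for each of 2 sets of libraries, and 16 of the 43 reached 5 FPKM (mapped fragments scaled to transcript length and library size) in at least 1 library. By class, 5 of 11 fibrillar chains, 5 of 6 type IV chains of the basement membrane and 6 of 26 chains of other types did so.

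EpH4 are mouse mammary gland epithelial cells, and EpRas are their H-Ras-transformed derivative. EpH4 was cultured in 10% and EpRas in 4% fetal bovine serum, so a difference between the lines cannot be told apart from a difference in serum. Cells received TGF-β3 at 1 ng/ml for 48 h or were left untreated, and polyA RNA was sequenced. The 8 untransfected libraries form 4 groups of 2 (EpH4 and EpRas, each with and without TGF-β). The other 6 libraries are EpRas cells that received siRNA and cover 3 conditions. These are a negative control (siNC) and 2 different siRNA pairs, each directed at both ETS transcription factors Etv4 and Etv5 (siEtv4/5). Each was sequenced with and without TGF-β, with 1 library a condition. Untransfected and transfected samples were processed independently, and values are compared only within a set. The study calls the untransfected libraries of a group biological replicates, and neither it nor the labels say whether they came from separate cultures, so a p-value here measures the spread between these libraries.

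Collagens are secreted trimers with a triple helix. Fibrillar types I, V and XXVII form the banded fibrils of connective tissue or contribute to them. Type IV chains assemble into the sheet-like network of the basement membrane on which mammary epithelium rests: Col4a1 joins with Col4a2, and Col4a3 and Col4a4 join with Col4a5. Type VII forms the anchoring fibrils that tie the basement membrane to the stroma below, and type XVIII is a proteoglycan of basement membranes whose end releases endostatin. TGF-β is a textbook inducer of collagen transcription in mesenchymal cells.

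The epithelial label was compared with marker genes. Of 6 mammary epithelial markers, Epcam, Cdh1, Krt8, Krt18 and Krt14 lay above 1 FPKM in all 14 libraries, while Krt5 was at or near 0. The levels by group follow, with no test made here. Krt14 was at 327 to 386 FPKM in untreated and 784 to 851 in TGF-β-treated EpH4, and at 103 to 115 in untreated and 62.2 to 64.6 in treated EpRas. Epcam was at 285 to 293 and 531 to 534 FPKM in EpH4 and at 90.1 to 147 and 64.9 to 149 in EpRas. Cdh1 was at 49.1 to 53.2 and 85.0 to 93.7 FPKM in EpH4 and at 24.4 to 27.4 and 18.2 to 20.6 in EpRas. Krt8 was at 703 to 885 and 1138 to 1335 FPKM in EpH4 and at 814 to 1114 and 561 to 1361 in EpRas. Krt18 was at 922 to 1132 and 1028 to 1035 FPKM in EpH4 and at 1081 to 1450 and 868 to 1356 in EpRas. For Krt8 and Krt18 the ranges of the lines overlapped both without and with TGF-β. The summed level of the 6 epithelial markers was 2294 to 2741 and 3575 to 3838 FPKM in EpH4 and 2127 to 2838 and 1577 to 2949 in EpRas. Of 6 fibroblast markers, Thy1, Lum and Fap were listed at 0 in all libraries and Dcn did not exceed 0.303 FPKM. Pdgfra lay between 0.668 and 3.16 FPKM in the untransfected groups. Pdgfrb was at 0.915 to 0.988 FPKM in untreated EpH4, 7.21 to 8.24 in TGF-β-treated EpH4, 7.14 to 8.11 in untreated EpRas and 3.81 to 5.34 in treated EpRas. The summed level of the 6 fibroblast markers was 1.58 to 1.97 FPKM in untreated EpH4 and 9.28 to 10.5 with TGF-β, 9.64 to 11.3 in untreated EpRas and 6.71 to 7.90 with TGF-β. Endothelial and adipocyte markers summed to at most 0.481 and 0.122 FPKM in the untransfected libraries. Of 3 immune markers, Cd68 alone was above 0 in these libraries, at 0.293 to 7.13 FPKM. The part of these markers in the results that follow was not tested, and in bulk RNA fewer cells of a type cannot be told apart from less RNA per cell. Relative sequencing depth, read from the steps between low FPKM values, ranged from 0.609 to 1.36 times that of EpH4 untreated replicate 1 in the untransfected libraries and from 1.26 to 2.2 times in the transfected ones.

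The bases upstream of 5 of the 8 chains that were higher with TGF-β in EpH4 are shown, and 1 of these chains is a member of a paired arrangement. In the mouse annotation (GENCODE M21, build GRCm38, also called mm10), Col4a1 (chromosome 8, minus strand) and Col4a2 (plus strand) are transcribed away from each other from start sites that overlap by 22 bases. Col4a4 (chromosome 1, minus strand) and Col4a3 (plus strand) have 71 bases between their starts. Col4a5 starts 1308 bases from Col4a6 on chromosome X. The sequences, 5′ to 3′ on the strand of the gene, come from RefSeq (GRCm38.p6), whose table held 13 of the 16 chains, and end at the start site that RefSeq gives. They stop where an exon annotated in GENCODE is met, so 2 of them are shorter. GENCODE also holds a Col27a1 transcript that starts further upstream, at base 63214004, so the Col27a1 stretch lies within that gene as annotated, between exons. Col1a1, Col12a1 and Col4a3 are named only, and Col1a2 was not printed. Capitals mark CAGAC, the letters bound by SMAD proteins, or its reverse complement.
Col27a1, chr4:63215162-63215411, plus strand: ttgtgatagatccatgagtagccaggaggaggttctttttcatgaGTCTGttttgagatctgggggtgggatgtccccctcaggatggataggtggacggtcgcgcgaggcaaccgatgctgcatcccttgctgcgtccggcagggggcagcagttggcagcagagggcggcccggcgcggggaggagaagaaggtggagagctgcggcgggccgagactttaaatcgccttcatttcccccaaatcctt
Col5a3, chr9:20815068-20815317, minus strand: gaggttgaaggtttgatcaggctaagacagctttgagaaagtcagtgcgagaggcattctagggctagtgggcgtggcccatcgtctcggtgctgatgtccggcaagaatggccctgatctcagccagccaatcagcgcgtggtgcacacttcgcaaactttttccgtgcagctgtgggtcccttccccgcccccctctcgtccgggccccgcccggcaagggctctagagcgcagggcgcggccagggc
Col7a1, chr9:108953336-108953585, plus strand: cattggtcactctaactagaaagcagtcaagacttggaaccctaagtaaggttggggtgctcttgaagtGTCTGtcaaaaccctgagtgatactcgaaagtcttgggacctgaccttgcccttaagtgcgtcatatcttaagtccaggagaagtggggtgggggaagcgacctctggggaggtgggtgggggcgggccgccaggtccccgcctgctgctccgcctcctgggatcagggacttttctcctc
Col16a1, chr4:130047775-130047839, plus strand: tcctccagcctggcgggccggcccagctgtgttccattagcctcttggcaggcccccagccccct
Col4a4, chr1:82586850-82586920, minus strand: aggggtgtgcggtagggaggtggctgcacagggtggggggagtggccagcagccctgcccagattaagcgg

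The 250 bases of Col27a1 and of Col7a1 held 1 match to CAGAC each, searched on both strands, and those of Col5a3 held 0. Of 32851 promoters, 42.2% held CAGAC in the same window. None of these 3 windows held TGANTCA (AP-1, in 6.75% of promoters), CCGGAAG (ETS, in 6.91%) or TGTGGT (RUNX, in 14%). The 71 bases between Col4a4 and Col4a3 held none of the 4 motifs, against 13.4% of promoters with CAGAC in a window of 71 bases. The 65 bases of Col16a1 held none either, against 12.4%. A match describes letters, not a bound site.

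The summed level of all 43 chains was 188 and 211 FPKM in untreated EpH4 and 524 and 464 FPKM in TGF-β-treated EpH4. It was 334 and 322 FPKM in untreated EpRas and 274 and 319 FPKM in treated EpRas. The makeup differed between lines. Fibrillar chains held 12.5 and 13% of the sum in untreated EpH4 and 51.2 and 51.6% with TGF-β, but 2.15 and 2.17% in untreated EpRas and 4.28 and 5.64% with TGF-β. Type IV chains held 10.7 to 13.8% in untreated EpH4 and 15.9 to 16.3% in untreated EpRas, and 6.97 and 7.07% in treated EpH4 and 12 and 12.3% in treated EpRas. Of the single chains, Col8a1 was the most abundant in untreated EpH4 (45.9 and 46.4% of the sum), Col1a1 in treated EpH4 (42.7 and 43.1%) and Col18a1 in all 4 EpRas libraries (40.2 to 43.5%). FPKM are per length, so these shares compare chains on the scale of transcript number.

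**Figure D1:**
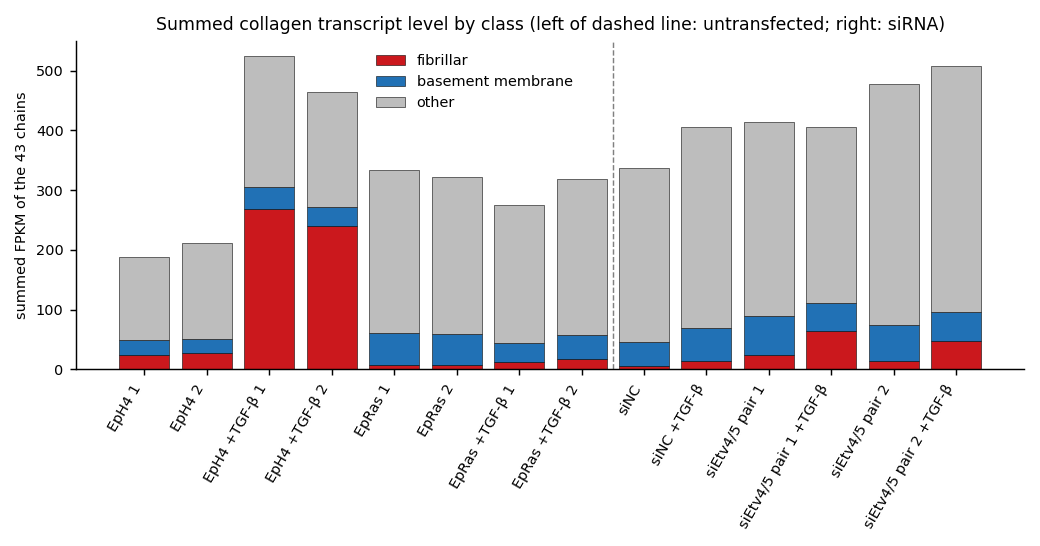
Summed FPKM of the 43 collagen chains (y axis) in each library (x axis), stacked by class. The dashed line separates the untransfected libraries from the siRNA libraries, which were processed separately. In the untransfected libraries the fibrillar part (red) is largest in the 2 TGF-β-treated EpH4 libraries, at 268 and 239 FPKM.

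**Figure D2:**
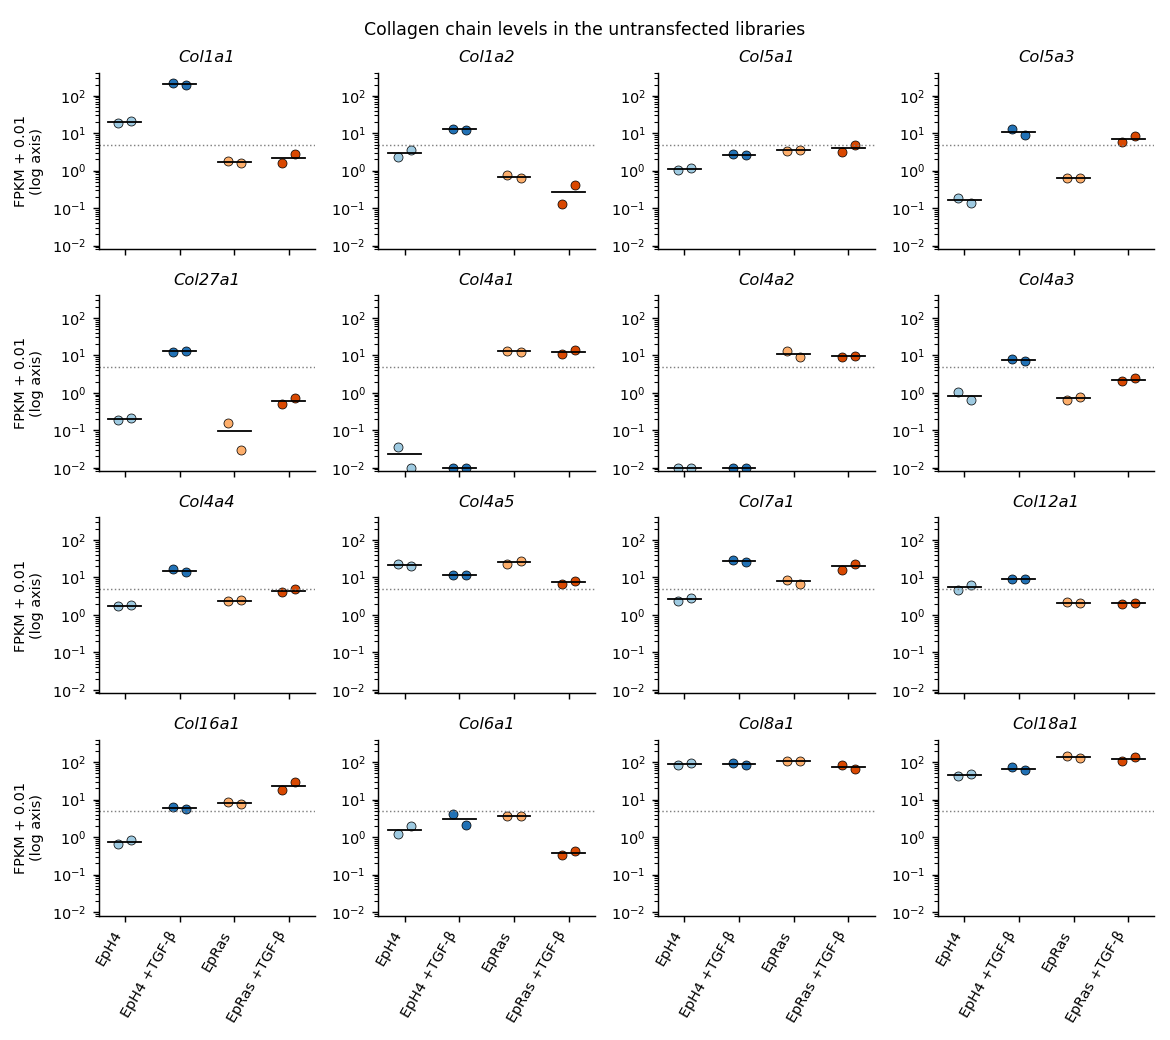
FPKM + 0.01 (log axis) of the 16 chains in the 8 untransfected libraries. Points are libraries, bars are group means, and the dotted line is 5 FPKM. Col4a1 and Col4a2 lie at the bottom in EpH4 and near 10 FPKM in EpRas.

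Gene-wise tests used limma on log2(FPKM + 1) across the 9100 genes that reached 5 FPKM in an untransfected library, with Benjamini-Hochberg adjustment over all of them and a threshold of 0.05. Of the 16 chains, 14 were tested, while Col5a1 and Col6a1 reached 5 FPKM only after transfection. The filter favours groups that are high. Col8a1, Col18a1 and Col4a5 reached 5 FPKM in all 4 groups, and Col7a1 and Col16a1 in all but untreated EpH4. Col1a2, Col27a1, Col4a3 and Col4a4 reached it in TGF-β-treated EpH4 alone, Col5a3 in treated cells of both lines alone, Col1a1 and Col12a1 in EpH4 alone, and Col4a1 and Col4a2 in EpRas alone. These chains had to be higher there, so the limma p-values of every comparison that involves those groups carry this selection, and the counts and medians over members are descriptions. With no filter on low values, the limma calls given here held in each comparison except that of Col7a1 for TGF-β in EpRas (Benjamini-Hochberg adjusted p = 0.0501).

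What differed between the lines without TGF-β was asked first. EpRas had higher levels of 5 chains, against 8.45% of all genes called higher. They are Col4a1 and Col4a2 of the basement membrane network, Col7a1, Col16a1 (a fibril-associated chain) and Col18a1. It had lower levels of 3 chains (Col1a1, Col1a2 and Col12a1), against 9.11% of all genes. The median log2 difference of the 14 chains was 0.27, beside -0.00 over all genes, and it was -0.68 for the 4 fibrillar, 0.31 for the 5 type IV and 1.27 for the 5 other chains. The libraries of the lines did not overlap for 9 chains that were higher in EpRas, against 30.6% of all genes, and 4 that were lower, against 30.4%.

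Col4a1 was at 0.0265 and 0 FPKM in untreated EpH4 and at 13.5 and 12.4 FPKM in untreated EpRas. In reads, this was 1 read over both EpH4 libraries and 837 over both EpRas libraries, a ratio of 1132 corrected for depth (95% exact binomial interval 203 to 44752, counting error only). Its partner Col4a2 was listed at 0 in all 4 EpH4 libraries and at 12.8 and 8.91 FPKM in untreated EpRas. Against a floor of 3 reads over the EpH4 group, Col4a2 was at least 294-fold higher. The log2 differences, which the added 1 FPKM compresses, were 3.78 ± 0.16 (SE) for Col4a1 and 3.54 ± 0.18 for Col4a2 (limma, Benjamini-Hochberg adjusted p = 1.43e-05 and 3.24e-05). The lines did not overlap for either chain, and both chains were tested because EpRas reached 5 FPKM. With TGF-β and the same floor, Col4a1 was at 0 in both EpH4 libraries and at 11.2 and 13.8 FPKM in EpRas, at least 278-fold higher, and Col4a2 was at 0 and at 9.12 and 9.64 FPKM, at least 204-fold higher. Their log2 differences with TGF-β were 3.75 ± 0.16 and 3.37 ± 0.18 (limma, Benjamini-Hochberg adjusted p = 1.30e-05 and 3.42e-05). In the 10 EpRas libraries, transfected ones included, the ratio of Col4a1 to Col4a2 in FPKM stayed between 1.06 and 1.43. The genes flank each other (Col4a1 at chr8:11198423-11312826 and Col4a2 at chr8:11312805-11449287), and both overlap annotated antisense transcripts. The libraries were directional, but whether strand was used in counting is not given in the sources used here.

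Col1a1, the main chain of type I collagen (chr11:94936224-94953042, plus strand), was at 18.7 and 21.3 FPKM in untreated EpH4 and at 1.80 and 1.57 FPKM in untreated EpRas, a log2 difference of -2.96 ± 0.21 (limma, Benjamini-Hochberg adjusted p = 1.44e-04). Its partner Col1a2 was at 2.38 and 3.53 FPKM in EpH4 and at 0.735 and 0.638 FPKM in EpRas, with a log2 difference of -1.21 ± 0.20 (adjusted p = 0.00645 from the same limma fit). Col12a1, a fibril-associated chain, was at 4.70 and 6.45 against 2.17 and 2.07 FPKM, with a log2 difference of -1.06 ± 0.17 (limma adjusted p = 0.00591). Both EpH4 libraries lay above both EpRas libraries for all 3, which were tested because EpH4 libraries reached 5 FPKM. Col16a1 was at 0.646 and 0.803 FPKM in EpH4 and 8.49 and 7.51 FPKM in EpRas, higher by 2.38 ± 0.22 on the log2 scale (limma adjusted p = 5.76e-04). Col18a1 was at 41.7 and 49.7 against 144 and 133 FPKM, higher by 1.58 ± 0.18 (limma adjusted p = 0.00161). Col7a1 was at 2.40 and 2.86 against 8.82 and 6.81 FPKM, higher by 1.27 ± 0.22 (limma adjusted p = 0.00814). That call was lost without EpH4 untreated replicate 1 (adjusted p = 0.0542) or EpRas untreated replicate 1 (0.0621).

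The same comparison was made with TGF-β in both lines. EpRas was higher in 4 chains (Col4a1, Col4a2, Col16a1 and Col18a1), against 8.92% of all genes, and lower in 6 chains (Col1a1, Col1a2, Col27a1, Col4a3, Col4a4 and Col12a1), against 12.3% of all genes. Col1a1 was at 224 and 200 FPKM in EpH4 with TGF-β and at 1.59 and 2.78 FPKM in EpRas with TGF-β, a log2 difference of -6.09 ± 0.21 (limma, Benjamini-Hochberg adjusted p = 5.47e-06). Col27a1 was at 12.5 and 13.2 against 0.481 and 0.721 FPKM, with a log2 difference of -3.12 ± 0.15 (limma adjusted p = 2.34e-05). Col1a2 was at 13.2 and 12.3 against 0.120 and 0.413 FPKM, with a log2 difference of -3.45 ± 0.20 (limma adjusted p = 4.10e-05). No EpRas library reached an EpH4 library for these 3 chains. The other 3 had smaller log2 differences, -1.42 ± 0.17 for Col4a3, -1.58 ± 0.16 for Col4a4 and -1.71 ± 0.17 for Col12a1 (limma adjusted p = 0.00114, 6.41e-04 and 4.80e-04). Col16a1 was higher in EpRas by 1.77 ± 0.22 (limma adjusted p = 0.00162), at 18.1 and 28.7 against 6.41 and 5.58 FPKM. Col18a1 was at 110 and 139 against 72.1 and 61.2 FPKM, with a log2 difference of 0.89 ± 0.18 (limma adjusted p = 0.0137). Without EpH4 TGF-β replicate 1 or 2 the difference was 1.0 and 0.77 and the limma call was lost (adjusted p = 0.0568 and 0.111). The median of the 14 chains was -0.56, beside -0.01 over all genes. Without overlap, 4 chains were higher in EpRas, against 30.2% of all genes, and 10 were lower, against 32.7%.

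TGF-β in EpH4 raised 8 of 14 chains, against 6.48% of all genes, and lowered 1, against 2.91%. All 4 tested fibrillar chains were among the 8 raised chains, with a median log2 difference of 3.34, beside -0.02 over all genes. Of the 8 raised chains, 5 (Col5a3, Col4a4, Col1a2, Col27a1 and Col4a3) were tested only because TGF-β-treated cells reached 5 FPKM. The counts of raised chains and this median carry that selection. The type IV chains split. Col4a3 and Col4a4 rose, Col4a5 fell, and Col4a1 and Col4a2 were at or near 0 with and without it. Of the other types, Col7a1 and Col16a1 rose, while Col12a1, Col18a1 and Col8a1 did not pass the test. Treated and untreated libraries did not overlap for 10 chains that were higher with TGF-β, against 30.2% of all genes, and 1 that was lower, against 30.4%.

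Col1a1 went from 18.7 and 21.3 FPKM to 224 and 200 FPKM, a log2 rise of 3.34 ± 0.21 (limma, Benjamini-Hochberg adjusted p = 1.92e-04). Col1a2 went from 2.38 and 3.53 to 13.2 and 12.3 FPKM, higher by 1.81 ± 0.20 (limma adjusted p = 0.00157). In the same libraries the ratio of Col1a1 to Col1a2 in FPKM went from 7.85 and 6.02 to 17.0 and 16.2. Col27a1, a fibrillar chain of cartilage, was at 0.183 and 0.203 FPKM in untreated and at 12.5 and 13.2 FPKM in treated cells. This was 20 reads against 1012 over both libraries, a depth-corrected ratio of 66.4 (interval 42.8 to 109). Col5a3, a type V chain, was at 0.174 and 0.128 FPKM without and 12.7 and 8.81 FPKM with TGF-β, a ratio of 70.4 from 12 and 644 reads (interval 40.0 to 137). Their log2 rises were 3.54 ± 0.15 for Col27a1 and 3.33 ± 0.21 for Col5a3 (limma adjusted p = 5.71e-05 and 1.92e-04). Treated and untreated libraries did not overlap for any of these chains.

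Of the type IV chains that assemble together, Col4a3 went from 1.01 and 0.642 to 8.0 and 7.26 FPKM, and Col4a4 from 1.68 and 1.78 to 16.8 and 13.9 FPKM. Their log2 rises were 2.25 ± 0.17 and 2.58 ± 0.16 (limma, Benjamini-Hochberg adjusted p = 3.57e-04 and 1.92e-04). Col4a5 went the other way, from 23.0 and 19.9 to 11.5 and 11.6 FPKM, and fell by 0.84 ± 0.17 on the log2 scale (limma adjusted p = 0.0252). This call was lost without any 1 of the 4 EpH4 libraries (adjusted p = 0.0804 to 0.176). Col7a1 went from 2.40 and 2.86 to 29.5 and 26.5 FPKM, higher by 3.0 ± 0.22 (limma adjusted p = 3.47e-04), and Col16a1 from 0.646 and 0.803 to 6.41 and 5.58 FPKM, higher by 2.02 ± 0.22 (limma adjusted p = 0.00176). Col8a1, a network-forming chain, was at 86.2 and 97.9 FPKM without and 94.8 and 84.2 FPKM with TGF-β, and these groups overlapped. Col12a1 (8.83 and 8.89 FPKM with TGF-β) and Col18a1 had log2 differences of 0.60 and 0.53 with adjusted p of 0.0730 and 0.131.

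In untransfected EpRas cells TGF-β raised 4 chains (Col5a3, Col4a3, Col7a1 and Col16a1), against 1.90% of all genes, and lowered Col4a5, against 1.92%. Col5a3 went from 0.617 and 0.638 to 6.0 and 8.20 FPKM, higher by 2.30 ± 0.21 (limma, Benjamini-Hochberg adjusted p = 0.00169), and it was tested only because treated cells reached 5 FPKM. Col16a1 went from 8.49 and 7.51 to 18.1 and 28.7 FPKM, higher by 1.41 ± 0.22 (limma adjusted p = 0.0166). Col7a1 was at 8.82 and 6.81 against 15.9 and 23.4 FPKM, and Col4a3 at 0.632 and 0.768 against 2.03 and 2.43 FPKM, higher by 1.21 ± 0.22 and 0.92 ± 0.17 (limma adjusted p = 0.0285 and 0.0280). Col4a5 went from 23.2 and 27.5 to 6.56 and 8.22 FPKM and fell by 1.65 ± 0.17 on the log2 scale (limma adjusted p = 0.00296). Treated and untreated libraries did not overlap for these 5 chains, and over the 14 chains they did not for 6 that were higher, against 18.5% of all genes, and 4 that were lower, against 20.9%. The TGF-β-treated EpRas libraries agreed less with each other than the pair of any other group. Their Pearson r across genes was 0.912, against 0.957 to 0.982 in the other groups, and their median absolute log2 difference was 0.302, against 0.129 to 0.208. Rplp0 was at 1461 and 5541 FPKM and Gapdh at 567 and 1193 FPKM in them. The part of this in the EpRas results was not tested. Fitted on the 4 EpRas libraries alone, 1 chain passed (Col5a3). Leaving out any 1 of EpH4 TGF-β replicate 1 or 2 or EpRas untreated replicate 1 or 2 left 2 calls (Col4a5 and Col5a3), and leaving out EpRas TGF-β replicate 2 left 3. With a pseudocount of 0.1 FPKM 7 chains passed, Col27a1 and Col4a4 being added. Col1a1 was at 1.80 and 1.57 FPKM in untreated and 1.59 and 2.78 FPKM in treated cells, and these overlapped. Col27a1 was at 0.150 and 0.0202 against 0.481 and 0.721 FPKM, 5 reads against 39, and did not pass with 1 FPKM added (limma adjusted p = 0.116). The median of the 14 chains was 0.09, beside -0.02 over all genes. Col6a1, below the level tested, was at 3.55 and 3.54 FPKM without and 0.315 and 0.406 FPKM with TGF-β, or 137 and 12 reads over each group.

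**Figure D3:**
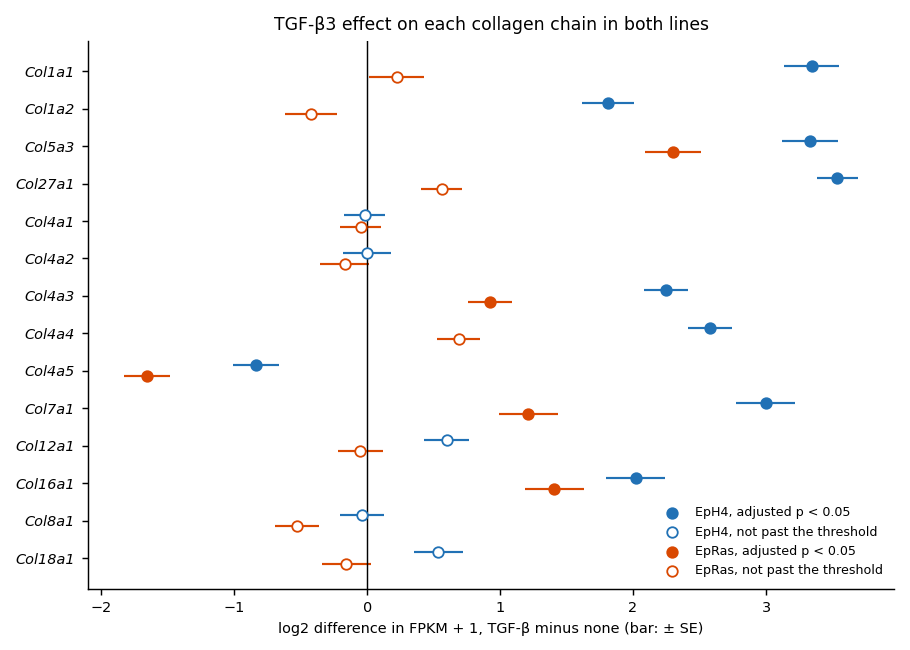
TGF-β effect on the 14 tested chains in EpH4 (blue) and EpRas (orange), as the log2 difference of FPKM + 1 on the x axis, with bars of ± 1 SE from limma. Filled points passed an adjusted p of 0.05. All 14 EpRas points lie to the left of their EpH4 points, by 0.03 to 3.12. Of these chains, 4 were tested only because TGF-β-treated EpH4 reached 5 FPKM.

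Whether the lines differed in the effect of TGF-β was tested as an interaction. The effect was lower in EpRas for 4 chains, against 0.626% of all genes, and higher for 0, against 0.176%. The differences were -3.12 ± 0.29 for Col1a1, -2.98 ± 0.22 for Col27a1, -2.23 ± 0.28 for Col1a2 and -1.89 ± 0.23 for Col4a4 on the log2 scale (limma, Benjamini-Hochberg adjusted p = 0.00729, 0.00257, 0.0177 and 0.0172). Col27a1, Col1a2 and Col4a4 were tested only because TGF-β-treated EpH4 reached 5 FPKM. With no filter on low values the adjusted p from limma were 0.0178, 0.00529, 0.0307 and 0.0226 in the same order. With a pseudocount of 0.1 FPKM the call of Col1a2 was lost (-3.32, limma adjusted p = 0.0733). Of these, Col27a1 kept its call when any 1 library was left out (adjusted p 0.00184 to 0.0376). Without EpH4 untreated replicate 1, either EpH4 TGF-β library or EpRas untreated replicate 2, it was the only chain called. Without EpRas untreated replicate 1 or EpRas TGF-β replicate 1, Col1a1 and Col27a1 were called. The sizes moved less, with Col1a1 between -2.85 and -3.40 and Col1a2 between -2.02 and -2.45. All 14 chains had a difference below 0, as did 52.7% of all genes, with medians of -0.92 and -0.03. Col1a2, Col27a1, Col4a3 and Col4a4 were tested only through TGF-β-treated EpH4, where a high level pulls this difference below 0. The count and the median of the chains therefore carry that selection. For Col7a1 (-1.78 ± 0.31) and Col4a3 (-1.32 ± 0.24) the interaction missed the threshold (limma adjusted p = 0.0635 and 0.0649).

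The genes that process, bind and degrade collagens were counted on the same fit, from lists chosen by function. Of 11 tested enzymes that hydroxylate or glycosylate the chains, TGF-β in EpH4 raised 5 and lowered 1, where 6.48% of all genes were higher and 2.91% lower. The largest were Lepre1, a prolyl 3-hydroxylase (higher by 1.44), Plod2, a lysyl hydroxylase (higher by 1.24), and Leprel1 (fell by 1.01). TGF-β in EpRas raised 0 of these and lowered Leprel1 (fell by 0.88), where 1.90% of all genes were higher and 1.92% lower. Of 8 folding and secretion genes, 4 rose in EpH4, led by the COPII coat members Sec24d (1.16) and Sec23a (1.06) and by the collagen chaperone Serpinh1 (0.93), and 0 passed in EpRas. Of 7 genes of propeptide removal and cross-linking, Bmp1, a procollagen C-proteinase (2.06), and Loxl3 (1.57) rose and Loxl4 (-1.58) fell in EpH4, while in EpRas Loxl4 (-1.21) alone passed. Of 3 tested receptors, Itga2 rose in both lines (2.31 and 2.17) and Ddr1 in EpH4 (1.09). All 3 tested collagenolytic proteases rose in EpH4, Mmp9 by 6.37, Mmp13 by 3.69 and Mmp14 by 1.69, and in EpRas Mmp9 (3.95) and Mmp13 (2.63) did. Between the lines without TGF-β, 8 genes of these lists were higher in EpRas, the N-proteinase Adamts14 (4.81), Loxl3 (2.38), Mmp13 (1.4), Plod1 (1.28), Sec31a (0.99), Sec23a (0.77), P4hb (0.74) and Glt25d1 (0.66), against 8.45% of all genes. Lower were 3, Loxl1 (-1.24), Ctage5 (-1.18) and Serpinh1 (-0.78), against 9.11%. With TGF-β in both lines, Adamts14 (5.48), Loxl4 (0.79) and Plod1 (0.60) were higher, against 8.92% of all genes, and Mmp9 (-2.99), Loxl1 (-1.98), Mmp14 (-1.67), Serpinh1 (-1.24) and Ddr1 (-1.05) were lower, against 12.3%. None of these lists held a gene whose interaction passed the test, against 0.626% of all genes lower and 0.176% higher.

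Chains in the siRNA libraries were followed without a test, since each condition has 1 library. As a check of the labels, Etv4 was at 57.4 FPKM with siNC, 11.6 with pair 1 and 27.9 with pair 2 in untreated cells, and at 64.3, 12.6 and 18.9 FPKM with TGF-β. Etv5 was at 8.85, 1.61 and 1.26 FPKM without and 5.34, 1.24 and 1.2 FPKM with TGF-β. The remaining level of Etv4 was thus 48.5% with pair 2 and 20.2% with pair 1 in untreated cells. A chain was counted where log2(FPKM + 1) differed from siNC by at least 1 in the same direction with both pairs, and 13 chains reached 5 FPKM here. The fibroblast marker Pdgfrb was at 1.09 FPKM with siNC, 5.25 with pair 1 and 9.35 with pair 2 in untreated cells, and at 2.09, 10.1 and 12 FPKM in treated cells. The 6 fibroblast markers summed to 4.47, 7.31 and 13 FPKM in untreated and 8.88, 12.4 and 15.9 FPKM in treated cells. Thy1, Lum and Fap were at 0, Dcn did not exceed 0.303 FPKM, and Pdgfra was at 3.21, 1.76 and 3.67 FPKM in untreated and 6.79, 2.33 and 3.86 FPKM in treated cells. The epithelial marker Krt14 was at 109 FPKM with siNC, 237 with pair 1 and 365 with pair 2 in untreated cells, and at 140, 214 and 244 FPKM in treated cells. Epcam went the other way, at 133, 112 and 111 FPKM in untreated and 222, 156 and 153 FPKM in treated cells. Cdh1 was at 61.3, 63.1 and 48.3 FPKM in untreated and 68.3, 53.4 and 39.5 FPKM in treated cells. Krt8 was at 1298, 1240 and 1083 FPKM in untreated and 1471, 2197 and 1896 FPKM in treated cells. Krt18 was at 1116, 1341 and 1446 FPKM in untreated and 1146, 1614 and 1619 FPKM in treated cells. The endothelial marker Cdh5 was at 0.320, 0.0262 and 0 FPKM in untreated and 1.80, 0.0774 and 0.173 FPKM in treated cells, and the immune marker Cd68 at 5.17, 2.83 and 3.94 FPKM in untreated and 6.52, 2.18 and 3.37 FPKM in treated cells. The part of these markers in the siRNA results was not tested.

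Without TGF-β, 1 chain was higher with both pairs, against 1.54% of all genes, and 0 were lower, against 2.49%. The count rests on the 1 FPKM added, since 3 chains passed with 0.1 FPKM (Col1a1, Col5a3 and Col6a1) and 0 with 5 FPKM. The chain was Col6a1, a chain of the beaded filaments of type VI (chr10:76708792-76726168, minus strand), at 3.21 FPKM with siNC, 9.01 with pair 1 and 29.4 with pair 2. Only these 2 siEtv4/5 libraries took it past 5 FPKM, so it was followed because it is high there. The ratios to siNC were 2.81 (95% exact binomial interval on reads 2.22 to 3.58) and 9.15 (7.37 to 11.5), which cover counting error only. The Cuffdiff interval of pair 1 (4.19 to 13.8 FPKM) overlapped that of siNC (1.02 to 5.40 FPKM), and that of pair 2 (15.6 to 43.1 FPKM) did not. Its usual partners were low and lay in the same direction. Col6a2 was at 0.420, 1.57 and 1.5 FPKM (11, 56 and 50 reads) and Col6a3 at 0, 0.0450 and 0.420 FPKM with siNC, pair 1 and pair 2. With TGF-β, Col6a1 was at 1.27, 0.595 and 2.88 FPKM, so it was lower with TGF-β in all 3 siRNA conditions, at 0.396, 0.0660 and 0.0983 of the untreated level.

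With TGF-β, 1 chain was higher with both pairs, against 1.33% of all genes, and 0 were lower, against 2.49%. Col5a3 was at 4.47 FPKM with siNC, 22.7 with pair 1 and 24.8 with pair 2, and among the siRNA libraries only these 2 siEtv4/5 libraries took it past 5 FPKM. The ratios were 5.07 (4.50 to 5.73 from reads) and 5.54 (4.91 to 6.26), and neither Cuffdiff interval (12.1 to 33.2 and 13.2 to 36.3 FPKM) overlapped that of siNC (1.96 to 6.98 FPKM). Without TGF-β, Col5a3 was at 0.572, 1.62 and 2.16 FPKM, with all 3 Cuffdiff intervals overlapping. The order of siNC below both pairs was thus the same in both states.

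Col1a1 differed between the pairs. It was at 0.629 FPKM with siNC, 14.3 with pair 1 and 2.07 with pair 2 in untreated cells, and at 2.44, 27.7 and 5.40 FPKM in treated cells. Pair 1 was 22.8 times siNC (14.8 to 37.1 from reads) without and 11.3 times (9.51 to 13.6) with TGF-β, and pair 2 was 3.29 times (2.03 to 5.58) and 2.21 times (1.78 to 2.75). On the scale with 1 FPKM added, pair 2 gave 0.92 and 0.89, below the threshold of 1. The Cuffdiff intervals of pair 2 overlapped those of siNC in untreated cells (0.549 to 3.59 against 0 to 1.28 FPKM) and in treated cells (2.30 to 8.5 against 0.695 to 4.19 FPKM), and those of pair 1 did not (7.39 to 21.3 and 14.7 to 40.6 FPKM). Col1a2 showed the same order, at 0.409, 2.99 and 1.37 FPKM without and 0.282, 3.04 and 1.15 FPKM with TGF-β. Col5a1, a type V chain, was highest with pair 2, at 2.76, 3.98 and 7.07 FPKM without and 5.05, 6.64 and 13.1 FPKM with TGF-β. Its partner Col5a2 did not exceed 0.396 FPKM in any library.

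No other chain passed the fold in the same direction with both pairs. Col12a1 was at 8.05 FPKM with siNC, 9.42 with pair 1 and 1.97 with pair 2 in untreated cells, and at 7.39, 25.3 and 6.09 FPKM in treated cells, so pair 1 lay above and pair 2 below siNC in both states. Col4a5 was at 15.5, 37.0 and 13.7 FPKM without and 8.63, 14.3 and 4.47 FPKM with TGF-β, and its pairs lay on the same sides of siNC as for Col12a1. Col16a1 was at 4.33, 6.14 and 14.1 FPKM without and 18.5, 10.8 and 20.1 FPKM with TGF-β. Col4a1 was at 12.5, 13.6 and 25.2 FPKM without and 20.7, 14.6 and 21.7 FPKM with TGF-β. Col4a2 was at 10.3, 11.7 and 19.3 FPKM without and 18.0, 11.3 and 16.0 FPKM with TGF-β, in the same order as Col4a1 without TGF-β. These 3 chains were above siNC with both pairs in untreated cells, Col16a1 at 1.42 and 3.26 times, Col4a1 at 1.09 and 2.02 times and Col4a2 at 1.13 and 1.87 times. The most abundant chains were Col18a1, between 172 and 291 FPKM in the 6 libraries, and Col8a1, between 57.9 and 85.9 FPKM. Col18a1 was at 1.3 and 1.48 times siNC in untreated cells and at 0.778 and 1.32 times in treated cells. Across the 13 chains the median log2 difference from siNC was 0.38 with pair 1 and 0.84 with pair 2 without TGF-β, beside 0.02 and 0.01 over all 9094 genes followed. With TGF-β it was -0.03 and 0.07, beside 0.02 and 0.03.

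**Figure D4:**
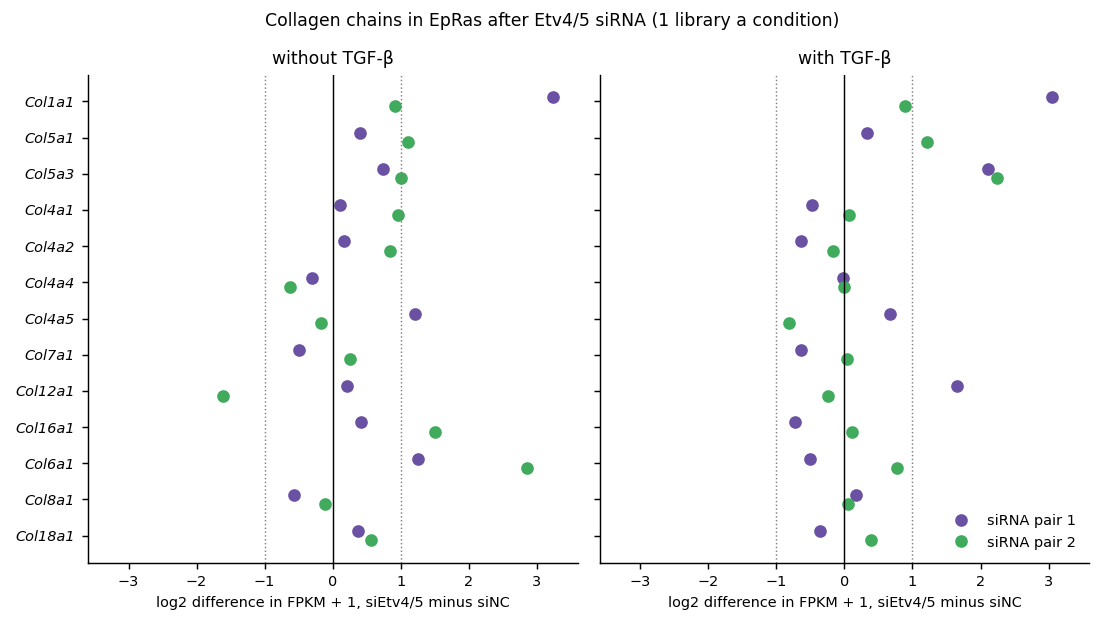
Log2 difference in FPKM + 1 from siNC (x axis) of the 13 chains that reached 5 FPKM in the siRNA libraries, for siRNA pair 1 (purple) and pair 2 (green), without TGF-β (left) and with it (right). Each point is 1 library against 1 library and dotted lines mark a 2-fold difference. Both points lie past the line for Col6a1 on the left and for Col5a3 on the right.

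In the transfected cells, TGF-β against none raised 3 chains by at least 1 on the log2 scale in all 3 siRNA conditions, against 1.34% of all genes, and lowered 0, against 0.671%. They were Col5a3, Col7a1 and Col4a4. Col7a1 was at 7.68, 5.14 and 9.32 FPKM with siNC, pair 1 and pair 2 in untreated cells, and 26.8, 16.9 and 27.7 FPKM in treated cells. Col4a4 was at 1.96, 1.41 and 0.918 FPKM in untreated and at 5.54, 5.42 and 5.52 FPKM in treated cells, so it was followed only through the treated libraries. Its neighbour Col4a3, under 5 FPKM here, was at 0.368, 0.542 and 0.264 FPKM without and 1.1, 2.08 and 1.14 FPKM with TGF-β. Col27a1 was at 0.0906, 0.0267 and 0.171 FPKM without and 1.13, 1.72 and 1.6 FPKM with TGF-β. The levels with TGF-β were higher in all 3 conditions for each of these chains. They were also higher for Col1a1, at 3.89, 1.93 and 2.61 times the untreated level with siNC, pair 1 and pair 2 (intervals from reads 2.45 to 6.47, 1.76 to 2.13 and 2.03 to 3.38, counting error only), with overlapping Cuffdiff intervals in each condition, and for Col16a1, at 4.28, 1.76 and 1.43 times. Col4a5 was lower in all 3, at 0.557, 0.387 and 0.326 of the untreated level.

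Of the 27 chains that stayed under 5 FPKM, 21 stayed under 1 FPKM and 5 were listed at 0 in all 14 libraries. The 5 highest were Col9a3 (at most 2.16 FPKM), Col6a2 (1.57), Col11a2 (1.48), the hemidesmosome component Col17a1 (1.48) and the cartilage chain Col2a1 (1.3). The lowest of the 16 chains above the threshold at their highest were Col4a3 at 8.0 FPKM and Col5a1 at 13.1 FPKM. Col3a1, the fibrillar chain of type III found with type I in most stroma, peaked at 1.07 FPKM.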

How the data were processed

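RNA-seq values were deposited by the authors as FPKM, with the Cuffdiff interval of each value, in separate tables for the untransfected and the siRNA libraries. According to the submitters' processing notes and the labels, reads from directional Ion Proton libraries were aligned to mm10 with TopHat2 (2.0.11) and Bowtie2 (2.2.2.2) and quantified with Cuffdiff of Cufflinks (2.2.0). No counts were used. For genes whose FPKM were whole multiples of one step (tolerance 0.05 reads), reads and relative depths were recovered, for 13 of the 16 chains and 9483 of 11905 genes. The comparisons were fitted with limma 3.58.1 (R 4.3.3) on log2(FPKM + 1) over all 4 untransfected groups, for genes of at least 5 FPKM in any library, and the same fit was tested on simulated data. The members and lists were chosen with earlier results of these data known. All chains of at least 5 FPKM are named with values, and statistics are given for those called in a comparison or past 2-fold with both siRNA pairs. Alternatives were other pseudocounts, filters, scaling, a replicate block, 2-group fits and leaving out each library. Python 3.11.15 with scipy 1.17.1 computed the intervals.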

Additional observations from a re-analysis of the deposited data

Results flagged for a closer look

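4 chains had a TGF-β effect that differed between EpH4 and EpRas in the limma interaction test. The effect in EpRas minus that in EpH4 was -3.12 for Col1a1, -2.98 for Col27a1, -2.23 for Col1a2 and -1.89 for Col4a4 on the log2(FPKM + 1) scale. Col27a1, Col1a2 and Col4a4 entered the test through TGF-β-treated EpH4 alone. The limma calls of all 4 held with no filter on low values (adjusted p 0.00529 to 0.0307), and that of Col1a2 was lost with a pseudocount of 0.1 FPKM (adjusted p = 0.0733). The replicate block ended the limma call of Col4a4 (adjusted p = 0.0656). Leaving out EpH4 untreated replicate 1, either EpH4 TGF-β library or EpRas untreated replicate 2 left Col27a1 alone, with adjusted p for Col1a1 of 0.0505 to 0.0719. Groups of 2 libraries are too small to test whether a single library stands apart. The TGF-β-treated EpRas libraries, which enter this test, agreed least (Pearson r across genes of 0.912).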

How the results depend on the processing

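No result changed its direction under the alternatives run. With a mean of at least 10 FPKM, which leaves fewer chains to test, the chains called numbered 3 (EpRas against EpH4 without TGF-β), 2 (with TGF-β), 3 (TGF-β in EpH4), 2 (TGF-β in EpRas) and 1 (difference between the lines). For TGF-β in EpRas the fit on the 2 groups alone left 1 call. With the replicate number as a block it left 3, and the block ended the calls of Col4a3 and Col7a1 there (limma adjusted p = 0.0721 and 0.0666), of Col4a5 for TGF-β in EpH4 (0.0569) and of Col4a4 in the interaction (0.0656). The 2-group fits ended the calls of Col16a1, Col4a3, Col4a5 and Col7a1 for TGF-β in EpRas (limma adjusted p = 0.161, 0.165, 0.0670 and 0.207) and of Col18a1 for EpRas against EpH4 with TGF-β (0.0503). With a pseudocount of 0.1 FPKM the comparisons called, in the order above, 9, 10, 9, 7 and 3 chains and with 5 FPKM 8, 10, 9, 4 and 4, against 8, 10, 9, 5 and 4 with 1 FPKM. At 5 FPKM Col4a3 in EpRas was lost (0.177). No filter on low values gave 9, 15, 13, 5 and 4 calls, and Col7a1 in EpRas was lost (0.0501). The deviations of same-numbered libraries correlated at -0.35 to 0.08 across genes, so no clear positive pairing by replicate number was seen. The lowest values were -0.35 between untreated and treated EpRas and -0.26 between untreated EpH4 and untreated EpRas. What lies behind them was not tested, so independence of the libraries is not shown.

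Leaving out 1 library gave 7 to 8, 9 to 12, 8 to 9, 2 to 4 and 1 to 5 calls for the same comparisons in that order. For siEtv4/5 without TGF-β, the chains past the fold with both pairs numbered 3 at 1.5-fold, 3 with a pseudocount of 0.1 FPKM, 0 with a pseudocount of 5 FPKM and 0 with a mean of at least 10 FPKM. With TGF-β they numbered 2 at 1.5-fold, 2 with a pseudocount of 0.1 FPKM and 0 with a mean of at least 10 FPKM. TGF-β in the 3 siRNA conditions gave 7 chains at 1.5-fold, 1 with a pseudocount of 5 FPKM and 1 with a mean of at least 10 FPKM. At 0.1 FPKM and at 1.5-fold, Col1a1 was among the chains added in both siEtv4/5 states. Over all genes, TGF-β in EpRas called 173 genes higher and 175 lower, and 30 and 15 with the 2 groups alone, and the difference between the lines called 16 and 57, and 6 and 25 with the block. The cause of these shifts was not tested. Over the genes with recovered reads, 5 FPKM was a median of about 45 to 162 reads a library, and more for long transcripts. With 2 libraries a group, or 1 for the siRNA conditions, low chains such as Col27a1 in EpRas rest on few reads.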
